A study of Mus musculus with 16 samples.

Results

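The comparison of melanoma tumors given a MEK inhibitor together with an agonist CD40 antibody against tumors given neither agent is described here across the mouse transcriptome. Tumors were chosen by their treatment label alone, which gave 4 MEKi+CD40 mIgG1 tumors and 4 Vehicle+control IgG tumors, 8 of the 16 tumors on arrays. All probe sets other than the manufacturer's controls entered, 45037 of 45101, and no measured value was used to choose tumors or probe sets.

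The tumors were B16-OVA, a mouse melanoma line that carries chicken ovalbumin as a model antigen. The cells were injected under the flank skin of C57BL/6-Ly5.1 mice aged 6 to 12 weeks, and the tumors were taken at day 18. MEKi+CD40 mice received GDC-0623, an allosteric inhibitor of MEK, at 30 mg/kg daily, and an anti-CD40 antibody of the mouse IgG1 isotype on treatment days 3, 5 and 7 and again 1 day before analysis. Control mice received the vehicle and a control IgG on the same antibody days. The other 8 tumors, from mice given GDC-0623 with control IgG (MEKi) or vehicle with the CD40 antibody (CD40), enter the fit of all 16 arrays, which adds them to the estimate of the spread, and the comparisons with each agent alone. All tumors came from 1 cell line in 1 mouse strain, and each array measured RNA from pieces of whole tumor, so that fewer cells of a type and less RNA per cell cannot be told apart in any result.

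MEK is the kinase that activates ERK, and active ERK induces cyclin D1 and other genes that take cells past G1 into DNA synthesis. CD40 is a receptor on dendritic cells, macrophages and B cells whose engagement licenses these cells to prime T cells. B16 melanoma makes large amounts of pigment enzymes and normally shows little MHC class I until interferon gamma induces it.

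Signals are log2 values, and a difference of 1 is a change of 2-fold. The background level, taken as the 95th percentile of olfactory receptor probe sets, was 4.95, and 39.9% of the probe sets lay below it. The pigment genes that mark this line were strong in all 8 tumors, with Tyrp1 between 14.23 and 14.44. Skeletal muscle transcripts were abundant in 2 of the 4 MEKi+CD40 tumors. The mean of 19 muscle genes lay 6.63 above the control mean in tumor 1 and 3.75 above it in tumor 3, against −0.02 in tumor 2 and 0.03 in tumor 4. Fibroblast genes followed the same tumors, at 3.48, −0.68, 1.66 and 0.38 in tumors 1 to 4. MEKi+CD40 tumor 1 also had the widest distance between 3′ and 5′ probe sets of Actb, 0.91 against 0.44 or less elsewhere. Results are therefore given with all 4 tumors and, for many lists and genes, again without tumors 1 and 3. That choice was made after these values were seen. Correlations between control arrays were 0.984 to 0.990 and between MEKi+CD40 arrays 0.916 to 0.985.

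In the fit of the 2 groups alone, 4 of 45037 probe sets (0.00888%) passed at an adjusted p under 0.05 (limma with Benjamini-Hochberg adjustment), 3 higher and 1 lower in MEKi+CD40 tumors. The threshold fell at a steep point of the distribution, because 1874 were under an adjusted p of 0.06 (607 higher, 1267 lower). With the 8 tumors of the single treatments added to the estimate of the spread, 4904 probe sets (10.9%) passed at 0.05, of which 1619 were higher and 3285 lower. At an unadjusted p under 0.05 there were 9559 (21.2%). The count also turned on single tumors. It was 0 without control tumor 1, 3 or 4 or MEKi+CD40 tumor 3 or 4, 1508 without control tumor 2, 1355 without MEKi+CD40 tumor 1 and 2327 without MEKi+CD40 tumor 2. Without both tumors with muscle transcripts it was 0 in the 2-group fit and 641 in the fit of all other arrays, which also left out CD40 tumor 3 for its muscle transcripts (2.53 above the control mean). Counts for gene lists below are therefore given at an unadjusted p under 0.05 in the 2-group fit and at an adjusted p under 0.05 in the fit of all 16 arrays. Of all 18193 genes, 14.5% were lower and 10.9% higher by the first rule, 9.4% lower and 4.77% higher by the second, and 10.4% were lower with no overlap between the groups. Shares of all genes were not counted for the fits without tumors 1 and 3. Of the 641 probe sets that passed in the fit of all other arrays, 166 were higher and 475 lower.

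Of the 4 probe sets called in the 2-group fit, 3 carry a gene name. Stap2, an adaptor protein in cytokine and kinase signalling, had log2 signals of 6.05, 6.20, 6.11 and 6.18 in control tumors 1 to 4 and 7.19, 7.06, 6.92 and 6.99 in MEKi+CD40 tumors 1 to 4. The groups did not overlap, and the difference was 0.91 (SE 0.08) with an adjusted p of 0.0426 (limma). Nav3, a protein of the microtubule cytoskeleton, read 7.06, 6.88, 7.08 and 7.07 in controls and 6.00, 6.19, 5.89 and 6.00 in MEKi+CD40 tumors, a difference of −1 (SE 0.09). Thra, a thyroid hormone receptor, read 7.24, 7.39, 7.31 and 7.23 in controls and 8.25, 8.09, 8.32 and 8.23 in MEKi+CD40 tumors, a difference of 0.93 (SE 0.08). Both had an adjusted p of 0.0426 (limma). The Nav3 and Thra values are of 1 probe set each, which is not the brightest of its gene. The probe set without a gene name was higher, at 5.61, 5.55, 5.58 and 5.54 in MEKi+CD40 tumors 1 to 4 against 4.65, 4.78, 4.91 and 4.71 in controls. All 4 differences had small spreads within each group.

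**Figure D1:**
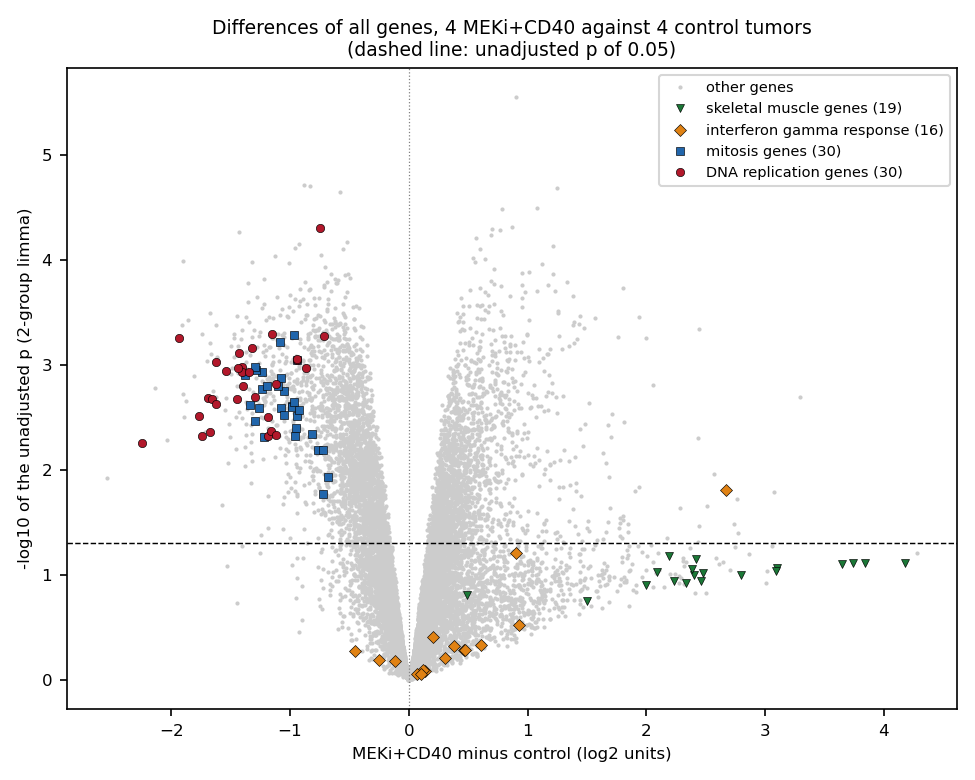
Difference between MEKi+CD40 and control tumors (x axis, log2 units) against −log10 of the unadjusted p of the 2-group limma fit (y axis) for 18193 genes, with 4 gene lists marked. All 30 DNA replication genes and all 30 mitosis genes lie left of 0 and above the dashed line, the skeletal muscle genes lie far right and below it, and the interferon gamma genes lie near 0 apart from Ubd at 2.67.

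Genes of DNA replication were lower in MEKi+CD40 tumors than in controls, and this was the gene list with the most negative median of the 47 examined. The median difference of its 30 measured members was −1.40, against 0.03 for all genes, and every member was lower, from −2.24 for Cdc6 to −0.71 for Gins4. All 30 were lower at an unadjusted p under 0.05, a rule that 14.5% of all genes met in that direction. All 30 fell in the fit of all 16 arrays, which 9.4% of genes did, and in 29 the groups did not overlap, against 10.4% of genes. None passed at an adjusted p under 0.05 in the 2-group fit, in which Stap2 was the 1 gene called (0.0055%).

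Cdc6, which loads the MCM helicase on origins, had log2 signals of 8.78, 8.09, 8.53 and 8.86 in control tumors 1 to 4 and 7.28, 7.42, 4.41 and 6.18 in MEKi+CD40 tumors 1 to 4. Its mean was 4.73-fold lower, a difference of −2.24 (SE 0.61) with an adjusted p of 0.0806 in the 2-group fit and 0.00936 with all 16 arrays (limma). Every MEKi+CD40 tumor lay below every control, and tumor 3 was the lowest by a wide margin. Mcm5 had log2 signals of 11.60, 10.59, 11.30 and 11.47 in control tumors 1 to 4 and 10.42, 10.18, 8.32 and 9.08 in MEKi+CD40 tumors 1 to 4, a difference of −1.74 (SE 0.46). Mcm5 is a subunit of that helicase, and control tumor 2 was the lowest control for it as for Cdc6. Gins1 had log2 signals of 9.50, 8.47, 9.37 and 9.39 in control tumors 1 to 4 and 7.77, 7.91, 6.54 and 6.78 in MEKi+CD40 tumors 1 to 4. Gins1 belongs to the GINS complex, which joins the helicase when an origin fires, and differed by −1.93 (SE 0.36). Cdc6 and Mcm5 were added after their values were seen. Among the members chosen by smallest p, Gins3 differed by −0.75 (SE 0.10), Orc6 of the origin recognition complex by −1.15 (SE 0.21) and Gins4 by −0.71 (SE 0.13). Gins3, Orc6 and Gins4 each had an adjusted p of 0.0517 in the 2-group fit (limma) and no overlap between the groups.

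The difference was also present in the tumors without muscle transcripts. Set against the control mean, the mean of the replication list was −0.93, −0.87, −2.10 and −1.58 in MEKi+CD40 tumors 1 to 4 and 0.23, −0.50, 0.07 and 0.20 in control tumors 1 to 4. Tumors 2 and 4, which had no muscle signal, were both below every control. Of the 30 members, 29 lay below all controls in tumor 1 and 30 in each of tumors 2, 3 and 4. Without tumors 1 and 3 the median was −1.24, and all 30 members were lower at an unadjusted p under 0.05, where the share of all genes was not counted. In the fit of all other arrays 25 members had an adjusted p under 0.05, where 475 of 45037 probe sets were lower. Leaving out any of the 8 tumors in turn left 30 of 30 members lower at an unadjusted p under 0.05.

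Mitosis genes were lower as well, by a smaller amount. The median difference of 30 members was −1.05, with values from −1.38 for Kif11 to −0.68 for Ccnb2. All 30 were lower at an unadjusted p under 0.05, all 30 fell in the fit of all 16 arrays, and 23 had groups that did not overlap, against 14.5%, 9.4% and 10.4% of all genes. Bub1b, a kinase-like protein of the spindle checkpoint, read 9.90, 9.31, 9.64 and 9.82 in control tumors 1 to 4 and 8.79, 9.03, 8.26 and 8.84 in MEKi+CD40 tumors 1 to 4. The difference was −0.94 (SE 0.19), with an adjusted p of 0.0523 in the 2-group fit and 0.00584 with all 16 arrays (limma). Cdk1, the kinase that drives entry into mitosis, read 11.67, 10.75, 11.33 and 11.33 and 10.18, 10.69, 9.77 and 10.24 in the same order, a difference of −1.05 (SE 0.23). In both genes MEKi+CD40 tumor 2 came closest to control tumor 2. The kinesins Cenpe and Kif23 differed by −0.97 (SE 0.18) and −1.08 (SE 0.20), survivin (Birc5) by −1.29 (SE 0.27) and Cdc20, which activates the anaphase-promoting complex, by −0.81 (SE 0.21). Mki67, the gene of the proliferation marker Ki-67, differed by −0.99 (SE 0.23), with values of 12.10, 11.26, 11.84 and 12.08 in controls and 11.02, 11.02, 10.30 and 11.00 in MEKi+CD40 tumors.

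The list score of the mitosis genes, relative to the control mean, was −1.01, −0.64, −1.57 and −0.98 in MEKi+CD40 tumors 1 to 4 and 0.33, −0.51, 0.02 and 0.16 in controls. Tumor 2 and control tumor 2 were the nearest tumors of the groups. Without tumors 1 and 3 the median was −0.81, and 28 members were lower at an unadjusted p under 0.05, where the share of all genes was not counted. In the fit of all other arrays 1 member had an adjusted p under 0.05, where 475 of 45037 probe sets were lower. All 30 replication genes had lain below the controls in tumor 2, whereas 23 of the 30 mitosis genes did.

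Promoter sequences of these lists were examined because their members moved together. RefSeq promoters of GRCm38.p6, 250 bases before to 50 bases after each annotated start, were found for 25 of the 30 mitosis genes (27 promoters) and 25 of the 30 replication genes (29 promoters). The letters searched, on both strands, were TTTGAA for the cell cycle homology region, to which the DREAM and MuvB complexes bind, CCAAT for the box bound by NF-Y, and TTTGGCGC for an E2F site. TTTGAA was found in 22 of the 27 mitosis promoters (81.5%) and 4 of the 29 replication promoters (13.8%), against 17.89% of all 32851 promoters. CCAAT was in 77.8% of the mitosis and 62.1% of the replication promoters, against 37.41% of all. TTTGGCGC was in 5 replication promoters (17.2%) and 0 mitosis promoters, against 0.51% of all. A match of letters is a description and not a bound site. The sequences give the bases just upstream of the annotated start of Cdk1 and Cdc20, with TTTGAA and CCAAT in capitals on either strand (ATTGG is the complement of CCAAT), and of Mcm6 and Mcm5, with TTTGGCGC or its complement GCGCCAAA in capitals. No capitalised sites overlap.
Cdk1, chr10:69352913-69353012, minus strand: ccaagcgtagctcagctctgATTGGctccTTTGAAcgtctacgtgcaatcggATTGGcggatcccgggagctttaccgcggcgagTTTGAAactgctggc
Cdc20, chr4:118437344-118437443, minus strand: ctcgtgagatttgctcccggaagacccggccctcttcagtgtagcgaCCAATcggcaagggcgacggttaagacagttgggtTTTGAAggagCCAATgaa
Mcm6, chr1:128359706-128359825, minus strand: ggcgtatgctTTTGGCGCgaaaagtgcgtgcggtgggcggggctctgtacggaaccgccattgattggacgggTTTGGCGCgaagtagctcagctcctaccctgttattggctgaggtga
Mcm5, chr8:75109349-75109508, plus strand: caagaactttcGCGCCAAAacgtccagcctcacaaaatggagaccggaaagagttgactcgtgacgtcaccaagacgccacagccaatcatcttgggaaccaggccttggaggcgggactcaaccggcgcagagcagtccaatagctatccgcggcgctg

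Beside these letters stand the array values of the same genes. In Cdk1 and Cdc20, TTTGAA lies 15 and 18 bases before the start, and their differences were −1.05 and −0.81. Mcm6 holds TTTGGCGC at 110 and 47 bases before the start and Mcm5 holds its complement at 149 bases, and these genes differed by −1.69 (SE 0.39) and −1.74 (SE 0.46).

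**Figure D2:**
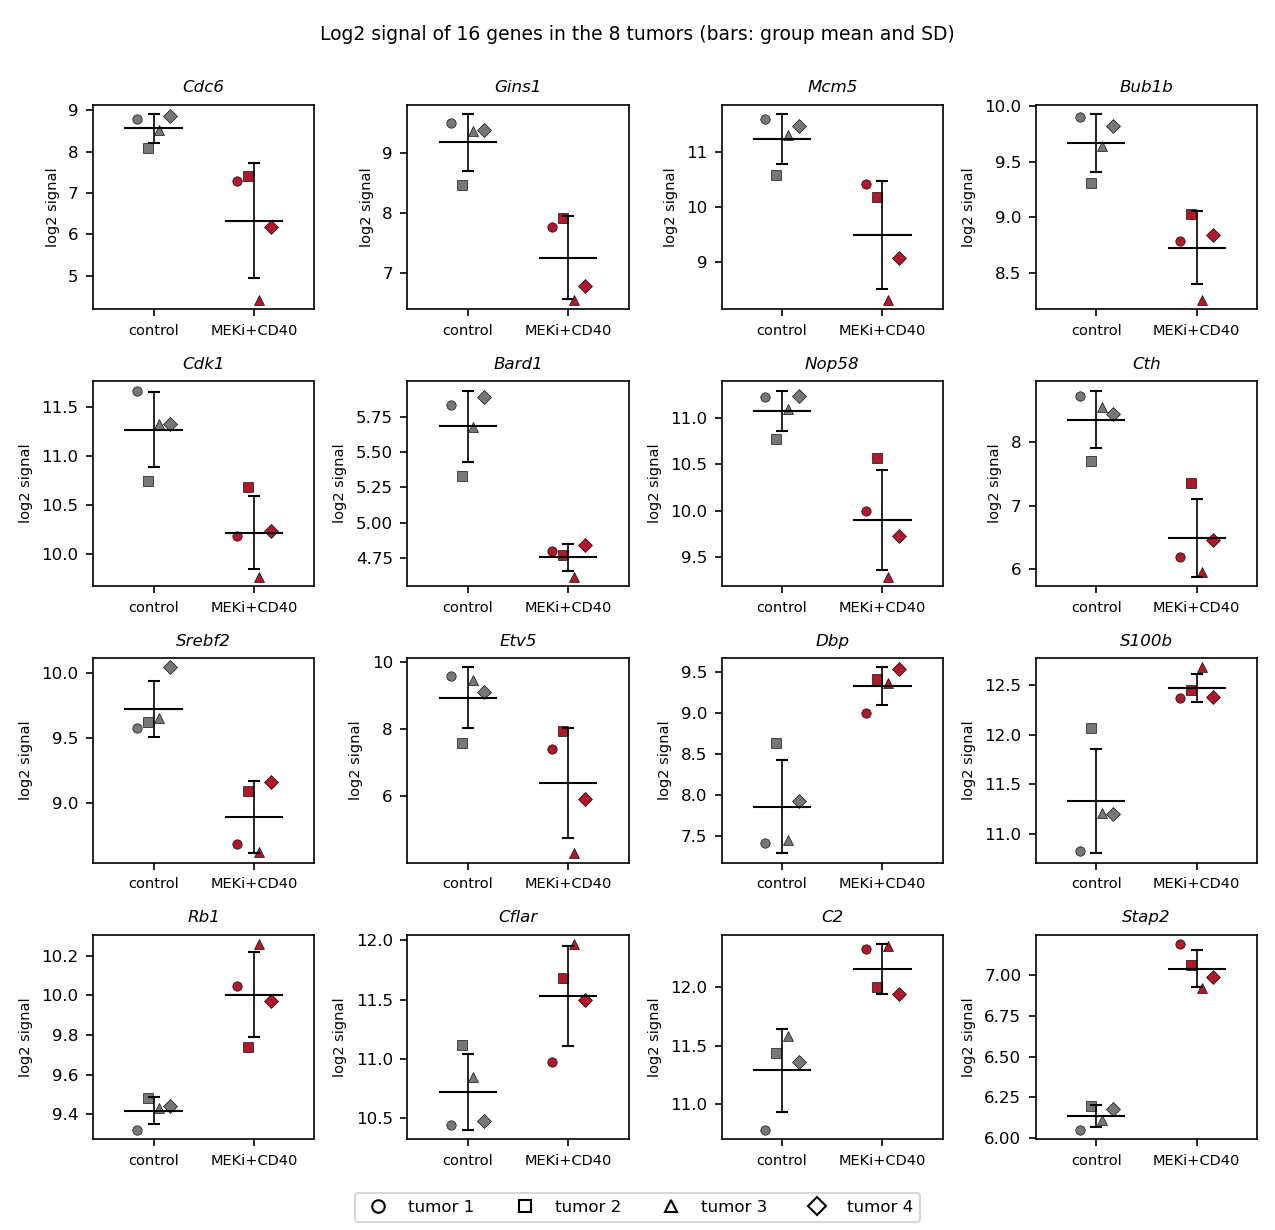
Log2 signal (y axis) of 16 genes in the 4 control and 4 MEKi+CD40 tumors, with a marker shape for each tumor number, a bar for the group mean and whiskers for its SD (n = 4). MEKi+CD40 tumor 3 was the lowest for Cdc6 (4.41) and Etv5 (4.29), and the groups did not overlap for Stap2, Gins1, Rb1 or Dbp.

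Homologous recombination and Fanconi genes, which repair double-strand breaks and crosslinks during S phase, had a median difference of −1.12. Of 14 members, 13 were lower at an unadjusted p under 0.05 and 13 fell in the fit of all 16 arrays, with no overlap in 11, against 14.5%, 9.4% and 10.4% of all genes. Bard1, the partner of BRCA1, read 5.83, 5.33, 5.68 and 5.89 in control tumors 1 to 4 and 4.80, 4.77, 4.62 and 4.84 in MEKi+CD40 tumors 1 to 4, where all values lay below the background level of 4.95. The difference of −0.93 (SE 0.13) had an adjusted p of 0.0517 in the 2-group fit and 0.00498 with all 16 arrays (limma). Brca2 differed by −0.91 (SE 0.15), the helicase Blm by −1.05 (SE 0.20) and the exonuclease Exo1 by −2.13 (SE 0.47). The Brca1 probe set was the exception, at 12.06, 13.20, 12.47 and 12.69 in controls and 13.11, 13.45, 13.63 and 13.22 in MEKi+CD40 tumors, a difference of 0.75 (SE 0.23) that did not pass (adjusted p = 0.11, limma, and 0.0814 with all 16 arrays). The groups overlapped, and whether this probe set detects Brca1 in these tumors was not tested. Without tumors 1 and 3 the median of the list was −1.02, and 10 members had an adjusted p under 0.05 in the fit of all other arrays. In that fit 475 of 45037 probe sets were lower.

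Regulators of the G1 to S transition differed in both directions. Among 18 members the median was −0.38, with 9 lower and 3 higher at an unadjusted p under 0.05, where 14.5% and 10.9% of all genes were. Rb1, the retinoblastoma protein that restrains E2F factors, read 9.32, 9.48, 9.43 and 9.44 in control tumors 1 to 4 and 10.05, 9.74, 10.26 and 9.97 in MEKi+CD40 tumors 1 to 4, a difference of 0.59 (SE 0.11) with an adjusted p of 0.0517 (limma). Its relative Rbl1 differed the other way, by −0.98 (SE 0.21). Both differences were free of overlap between groups, and both passed in the fit of all 16 arrays (adjusted p = 0.00724 and 0.00532, limma). The repressor E2f8 differed by −1.14 (SE 0.26) and Cdk4, the kinase partner of cyclin D, by −0.43 (SE 0.09). Cyclin D1 (Ccnd1), a target of ERK, read 10.72, 10.20, 11.16 and 10.93 in controls and 10.22, 10.53, 7.61 and 9.64 in MEKi+CD40 tumors. Its difference of −1.25 (SE 0.58) did not pass in either fit (adjusted p = 0.264 and 0.0891, limma), the groups overlapped, and tumor 3 was the lowest.

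Genes for making ribosomes were lower in the cytosol and in mitochondria. All 24 ribosome biogenesis genes had negative differences, with a median of −0.60, of which 18 were lower at an unadjusted p under 0.05 and 16 fell in the fit of all 16 arrays, against 14.5% and 9.4% of all genes. Nop58, a core protein of the particles that methylate ribosomal RNA, read 11.22, 10.77, 11.09 and 11.23 in control tumors 1 to 4 and 10.00, 10.57, 9.29 and 9.73 in MEKi+CD40 tumors 1 to 4. The groups did not overlap, and the difference was −1.18 (SE 0.25) with an adjusted p of 0.0533 (limma). The methyltransferase Fbl of the same particles differed by −0.98 (SE 0.22) and the nucleolar protein Nolc1 by −1.20 (SE 0.26). All 16 mitochondrial ribosomal protein genes were negative too, with a median of −0.46, 14 at an unadjusted p under 0.05 and 12 in the fit of all 16 arrays. Mrps30 read 9.81, 9.57, 9.85 and 9.76 in controls and 9.30, 9.39, 9.09 and 9.18 in MEKi+CD40 tumors, a difference of −0.51 (SE 0.10). By contrast the 21 oxidative phosphorylation genes had a median of −0.02, with 1 higher and 0 lower at an unadjusted p under 0.05. Without tumors 1 and 3, the medians were −0.52 for ribosome biogenesis, with 18 members lower at an unadjusted p under 0.05, and −0.33 for the mitochondrial ribosome, with 8. How many of all genes were lower in that fit was not counted.

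Amino acid and chaperone genes showed a similar direction in part of their members. Atf4, the transcription factor of the amino acid response, read 12.44, 12.17, 12.19 and 12.38 in control tumors 1 to 4 and 11.75, 11.55, 11.36 and 11.78 in MEKi+CD40 tumors 1 to 4, a difference of −0.69 (SE 0.12) with no overlap and an adjusted p of 0.0517 (limma). Cth, which makes cysteine from cystathionine, read 8.73, 7.70, 8.56 and 8.45 in controls and 6.20, 7.36, 5.96 and 6.47 in MEKi+CD40 tumors, a difference of −1.86 (SE 0.33), or 3.64-fold lower. Phgdh, which opens the pathway to serine, differed by −1.11 (SE 0.18). Of the 20 genes on this list, 10 were lower and 0 higher at an unadjusted p under 0.05, and 6 fell in the fit of all 16 arrays, against 14.5% and 9.4% of all genes. Among 11 heat shock genes, 4 were lower at an unadjusted p under 0.05, including Hsph1, a partner of HSP70, at −0.995 (SE 0.20), and the mitochondrial chaperonin Hspd1 at −0.67 (SE 0.17). The small heat shock protein Hspb1 read 12.32, 7.45, 10.42 and 7.88 in MEKi+CD40 tumors 1 to 4, high only in the 2 tumors with muscle transcripts.

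Lipid synthesis genes were lower in a pattern that differed between tumors. All 19 cholesterol synthesis genes were negative, with a median of −0.65. At an unadjusted p under 0.05, 11 were lower, and 6 fell in the fit of all 16 arrays, against 14.5% and 9.4% of all genes. Srebf2, the transcription factor that drives the pathway, read 9.57, 9.62, 9.65 and 10.04 in control tumors 1 to 4 and 8.68, 9.09, 8.62 and 9.16 in MEKi+CD40 tumors 1 to 4, a difference of −0.83 (SE 0.16) with an adjusted p of 0.0517 (limma). The enzymes Pmvk and Lss differed by −1.02 (SE 0.18) and −0.80 (SE 0.19). The score of the list against the control mean was −1.33, −0.17, −0.69 and −0.28 in MEKi+CD40 tumors 1 to 4, so tumors 1 and 3 were the furthest from controls, and without them the median was −0.28. The part of the muscle transcripts in this value was not tested. Of 11 fatty acid synthesis genes, 7 were lower at an unadjusted p under 0.05, among them fatty acid synthase (Fasn) at −0.59 (SE 0.11) and the elongase Elovl6 at −1.37 (SE 0.34). CD40 tumors had the same cholesterol median as the combination against the shared controls, −0.65, and MEKi tumors had −0.14.

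The genes that ERK induces were examined because GDC-0623 acts on this pathway. The 20 measured genes had a median of −0.45, and 16 were negative, as 44.4% of all genes were. At an unadjusted p under 0.05, 2 were lower, and 1, Etv5, fell in the fit of all 16 arrays. These were smaller shares than the 14.5% and 9.4% of all genes. In 2 members, both lower, the groups did not overlap, against 10.4% of all genes. Without tumors 1 and 3 the median was −0.16, and 4 members were lower at an unadjusted p under 0.05. The share of all genes in that fit was not counted. Etv5, an ETS factor, read 9.58, 7.60, 9.46 and 9.10 in control tumors 1 to 4 and 7.42, 7.96, 4.29 and 5.91 in MEKi+CD40 tumors 1 to 4. The difference of −2.54 (SE 0.80) had an adjusted p of 0.115 in the 2-group fit and 0.0201 with all 16 arrays (limma), and control tumor 2 lay among the MEKi+CD40 values. Dusp6, the phosphatase that ERK induces to limit itself, read 12.35, 12.05, 12.18 and 12 in controls and 11.82, 12.16, 10.89 and 11.86 in MEKi+CD40 tumors. Spry4, another feedback inhibitor, read 7.20, 6.56, 6.79 and 6.88 in controls and 6.52, 6.71, 4.15 and 6.30 in MEKi+CD40 tumors. Their differences of −0.46 (SE 0.25) and −0.94 (SE 0.52) did not pass in either fit. For Dusp6, Spry4 and Myc the values of tumor 3 were far below those of the other 3 tumors, and without tumors 1 and 3 the differences were −0.14, −0.35 and −0.36. The list score was 0.05, −0.34, −1.22 and −0.43 in MEKi+CD40 tumors 1 to 4, and 0.29, −0.01, 0.14 and 0.00 in tumors given the inhibitor alone. The 10 RAS, RAF, MEK and ERK kinase genes had a median of 0.15, which was −0.03 when all probe sets of a gene were averaged.

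Pigment genes of the tumor cells were little different, and a few genes of the melanocytic lineage were higher. The 12 melanosome genes had a median of 0.08, and Tyrp1 differed by 0.07 (SE 0.07). At an unadjusted p under 0.05, 1 of them was higher and 1 lower, and the lowest difference was Trpm1 at −0.32. Of 15 lineage factors and receptors, 3 were higher and 0 lower by this rule, where 10.9% and 14.5% of all genes were. Among these 15, 5 were negative, with Kit lowest at −0.29. Their median was 0.26, and −0.01 without tumors 1 and 3. Oca2, a melanosome transporter, read 11.00, 11.91, 11.67 and 11.22 in control tumors 1 to 4 and 12.01, 12.57, 12.86 and 12.23 in MEKi+CD40 tumors 1 to 4, a difference of 0.97 (SE 0.24). S100b, a calcium-binding protein of the melanocytic lineage, read 10.83, 12.07, 11.21 and 11.20 in controls and 12.37, 12.45, 12.68 and 12.38 in MEKi+CD40 tumors. The groups did not overlap for either gene, and the S100b difference of 1.14 (SE 0.24) had an adjusted p of 0.053 in the 2-group fit and 0.00724 with all 16 arrays (limma). Both genes were higher in tumors 2 and 4 alone, by 0.95 and 1.09, and in both genes control tumor 2 was the highest control.

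Dbp, a clock-controlled transcription factor, was the clock gene with the largest difference. It read 7.41, 8.63, 7.45 and 7.93 in control tumors 1 to 4 and 9, 9.41, 9.37 and 9.53 in MEKi+CD40 tumors 1 to 4, 2.77-fold higher on average. The difference was 1.47 (SE 0.27) with an adjusted p of 0.0517 in the 2-group fit and 0.00513 with all 16 arrays (limma), and it was 1.62 in tumors 2 and 4 alone. The repressor Nr1d1, which is also under clock control, differed by 0.57 (SE 0.16) with overlap of the groups. Of 18 clock genes, 5 were higher and 0 lower at an unadjusted p under 0.05, where 10.9% of all genes were higher, and Dbp and Nr1d1 rose in the fit of all 16 arrays, as 4.77% of genes did. No source used here gives the hour at which tumors were taken. Fkbp5, a cochaperone that the glucocorticoid receptor induces, read 10.17, 9.67, 10.12 and 9.80 in controls and 9.38, 9.45, 9.24 and 9.33 in MEKi+CD40 tumors, a difference of −0.59 (SE 0.12) with no overlap. Klf9, another gene that this receptor induces, differed the other way, by 0.46 (SE 0.12), and the 14 genes of the list had 2 higher and 1 lower at an unadjusted p under 0.05, near or below the 10.9% and 14.5% of all genes. The list median was 0.55 with 4 tumors and 0.07 without tumors 1 and 3.

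Genes of cell death and of the p53 response were mixed. Phlda3, a p53 target that restrains AKT, read 9.83, 10.45, 10.40 and 10.55 in control tumors 1 to 4 and 11.33, 11.56, 11.98 and 11.01 in MEKi+CD40 tumors 1 to 4, a difference of 1.16 (SE 0.23) with an adjusted p of 0.0522 (limma). Mdm2, the ubiquitin ligase for p53, differed by −0.39 (SE 0.11). Of 11 p53 targets, 2 were higher and 2 lower at an unadjusted p under 0.05, where 10.9% and 14.5% of all genes were. Cflar, which blocks caspase 8, read 10.44, 11.12, 10.85 and 10.48 in controls and 10.97, 11.68, 11.97 and 11.50 in MEKi+CD40 tumors, a difference of 0.81 (SE 0.23), and the death receptor adaptor Fadd differed by −0.33 (SE 0.09). The difference of Cflar passed in the fit of all 16 arrays (adjusted p = 0.0155, limma) although the groups overlapped by MEKi+CD40 tumor 1. Bcl2, which keeps mitochondria intact, read 9.42, 9.55, 9.40 and 9.17 in controls and 9.15, 9.09, 8.48 and 8.88 in MEKi+CD40 tumors, a difference of −0.49 (SE 0.16). The 17 genes of death receptors, caspases and inflammasomes had 1 higher and 1 lower at an unadjusted p under 0.05, and the 11 BCL2 family genes had 3 higher and 1 lower. Apart from the 3 higher BCL2 family genes, these shares lay below the 10.9% and 14.5% of all genes. The median of the death receptor, caspase and inflammasome list was 0.29, and −0.13 without tumors 1 and 3.

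Interferon response genes varied widely among the 4 MEKi+CD40 tumors. The interferon gamma list had a median of 0.26, and its score against the control mean was 1.32, 0.64, 0.71 and −1.03 in MEKi+CD40 tumors 1 to 4 and −0.70, −0.66, 1.00 and 0.36 in control tumors 1 to 4. Tumor 4 was below every control, tumor 1 was above every control, and tumors 2 and 3 lay within the range of the controls. Without tumors 1 and 3 the median of this list was −0.28. Of the 16 members 1, Ubd, was higher at an unadjusted p under 0.05 and rose in the fit of all 16 arrays (adjusted p = 0.0345, limma). Ubd had log2 signals of 5.11, 5.62, 8.45 and 6.51 in control tumors 1 to 4 and 9.66, 8.70, 10.76 and 7.25 in MEKi+CD40 tumors 1 to 4, a difference of 2.67 (SE 0.88). Ubd is a ubiquitin-like modifier that interferon gamma and tumor necrosis factor induce. The 24 type I interferon genes had 23 positive differences with a median of 0.70, 2 at an unadjusted p under 0.05 (10.9% of all genes were higher) and 0 in the fit of all 16 arrays, and the median was 0.12 without tumors 1 and 3. Usp18, which removes ISG15 from proteins, differed by 1.31 (SE 0.57) with overlap of the groups.

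Antigen presentation genes followed the same tumors. H2-K1, an MHC class I heavy chain, read 13.17, 13.58, 13.88 and 13.63 in control tumors 1 to 4 and 13.98, 14.03, 14.19 and 13.61 in MEKi+CD40 tumors 1 to 4, a difference of 0.39 (SE 0.17). H2-Ab1, an MHC class II chain of antigen-presenting cells, read 8.51, 9.38, 11.29 and 10.84 in controls and 12, 11.15, 11.59 and 8.71 in MEKi+CD40 tumors, a difference of 0.86 (SE 0.83). For H2-K1, tumors 1, 2 and 3 lay above every control and tumor 4 lay within the controls, and for H2-Ab1 tumors 1 and 3 lay above every control. None of the 16 class I and 10 class II genes passed at an unadjusted p under 0.05. The class I median was 0.06, and −0.165 without tumors 1 and 3. The class II median was 0.55, and −0.14 without them. Cd274, which encodes the checkpoint ligand PD-L1, read 7.91, 8.50, 9.57 and 9.04 in controls and 10.35, 10.01, 10.51 and 8.25 in MEKi+CD40 tumors, a difference of 1.03 (SE 0.54) with an adjusted p of 0.318 (limma).

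T cell genes showed no difference that passed in either fit. Cd8a read 6.00, 5.72, 6.16 and 5.97 in control tumors 1 to 4 and 5.98, 6.25, 6.26 and 6.12 in MEKi+CD40 tumors 1 to 4, a difference of 0.19 (SE 0.11) that did not pass (adjusted p = 0.376, limma). Cd3e differed by 0.29 (SE 0.15), and Foxp3, the regulatory T cell factor, by −0.05 (SE 0.08) at signals of 4.73 to 4.99, near the background level. Ifng, the gene of interferon gamma, read 4.35, 4.43, 6.43 and 4.92 in controls and 6.97, 5.52, 4.97 and 3.89 in MEKi+CD40 tumors. Gzmb, the gene of granzyme B, read 5.93, 6.05, 8.87 and 7.22 in controls and 7.76, 7.92, 7.26 and 5.25 in MEKi+CD40 tumors. Both spread over more than 2 log2 units within each group. Their differences of 0.31 (SE 0.68) and 0.03 (SE 0.78) were smaller than their errors, and both were negative without tumors 1 and 3 (−0.33 and −0.43). The 21 T cell genes had 3 higher and 0 lower at an unadjusted p under 0.05, and the 16 cytotoxic genes had 2 and 0, shares near the 10.9% of all genes that were higher. None of either list passed in the fit of all 16 arrays. The T cell median was 0.24, and −0.03 without tumors 1 and 3. The cytotoxic median was 0.18, and −0.12 without them.

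Myeloid genes likewise spread across the tumors. The 14 pan-leukocyte genes scored 1.67, 0.45, 0.49 and −1.01 against the control mean in MEKi+CD40 tumors 1 to 4, and −0.88, −0.44, 0.77 and 0.56 in controls. The 16 macrophage genes had a median of 0.54 with all 4 tumors and −0.45 without tumors 1 and 3, and none passed at an unadjusted p under 0.05. The mannose receptor Mrc1, used as a marker of M2-type macrophages, read 10.55, 7.84, 6.84 and 5.68 in MEKi+CD40 tumors 1 to 4 against 6.32, 7.30, 7.54 and 8.65 in controls. All 12 M2-type genes were positive, with a median of 0.58, and of −0.13 without tumors 1 and 3. The 10 M1-type genes had medians of 0.42 and −0.01. At an unadjusted p under 0.05, 2 M2-type genes and 1 M1-type gene were higher, where 10.9% of all genes were. Cd40, the receptor of the antibody, differed by 0.29 (SE 0.21), and its adaptor Traf2 by −0.37 (SE 0.12). The 18 dendritic cell genes had a median of −0.06, with 12 negative differences. Without tumors 1 and 3 the median was −0.25. In that fit 3 were lower and 0 higher at an unadjusted p under 0.05, and the share of all genes was not counted. With all 4 tumors, 2 were higher and 0 lower by this rule, where 10.9% of all genes were higher. All 12 neutrophil genes were positive. At an unadjusted p under 0.05, 4 were higher, and 2 rose in the fit of all 16 arrays, against 10.9% and 4.77% of all genes. The list scores of 1.74, 0.08, 1.54 and 0.24 in MEKi+CD40 tumors 1 to 4 were highest in the tumors with muscle transcripts. The median was 0.56, and 0.07 without tumors 1 and 3. Without these tumors 3 members were higher at an unadjusted p under 0.05, and the share of all genes was not counted. The integrin gene Itga4 differed by −0.35 (SE 0.24).

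C2 of the complement genes and Fcgrt of the Fc receptor genes stood apart from the leukocyte pattern. C2, a serine protease of the classical complement pathway, read 10.78, 11.44, 11.58 and 11.36 in control tumors 1 to 4 and 12.33, 12, 12.35 and 11.94 in MEKi+CD40 tumors 1 to 4, a difference of 0.87 (SE 0.18) with no overlap and an adjusted p of 0.0534 in the 2-group fit and 0.00636 with all 16 arrays (limma). C1s1, a protease of the C1 complex, read 8.22, 8.67, 8.70 and 8.45 in controls and 11.21, 9.41, 10.86 and 9.41 in MEKi+CD40 tumors, highest in the 2 tumors with muscle transcripts, a difference of 1.71 (SE 0.42). Fcgrt, the neonatal Fc receptor that recycles IgG, read 8.20, 8.68, 8.58 and 8.15 in controls and 9.70, 9.11, 9.63 and 9.22 in MEKi+CD40 tumors, a difference of 1.01 (SE 0.18). The Fc receptor list of 5 genes as a whole scored 1.98, 0.59, 0.80 and −1.05 in MEKi+CD40 tumors 1 to 4. Its median was 0.54, and −0.525 without tumors 1 and 3. At an unadjusted p under 0.05, 1 of the 5 was higher, where 10.9% of all genes were. Of 9 complement genes, 4 were higher at an unadjusted p under 0.05 and 2 rose in the fit of all 16 arrays, against 10.9% and 4.77% of all genes. The list median was 0.88 with 4 tumors and 0.02 without tumors 1 and 3, where C2 and Fcgrt had differences of 0.68 and 0.76.

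Markers of skeletal muscle and of fibroblasts, tissues that a tumor piece can hold, were highest in tumors 1 and 3. All 19 skeletal muscle genes had positive differences, with a median of 2.42, and all 19 were above every control in tumors 1 and 3, against 3 in tumor 2 and 4 in tumor 4. The myosin gene Myh1 read 3.17, 3.28, 3.35 and 3.05 in control tumors 1 to 4, which is below background, and 12.23, 3.11, 11.01 and 3.21 in MEKi+CD40 tumors 1 to 4. Of the 15 fibroblast and matrix genes, 15 were above every control in tumor 1 and 14 in tumor 3, with none in tumor 2 and 4 in tumor 4, and their median of 1.03 was −0.31 without tumors 1 and 3. Endothelial genes did not follow these tumors alone, with scores of 1.44, −0.16, 0.32 and 0.55 in MEKi+CD40 tumors 1 to 4. Their median was 0.55, and 0.11 without tumors 1 and 3. Adipocyte genes scored 1.18, 0.06, 0.57 and 0.13 in MEKi+CD40 tumors 1 to 4, highest in tumors 1 and 3. The medians were 0.38 for adipocyte and 0.13 for keratinocyte genes, and 0.13 and 0.04 without tumors 1 and 3. The part of these tissues in the immune and complement values above was not tested.

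**Figure D3:**
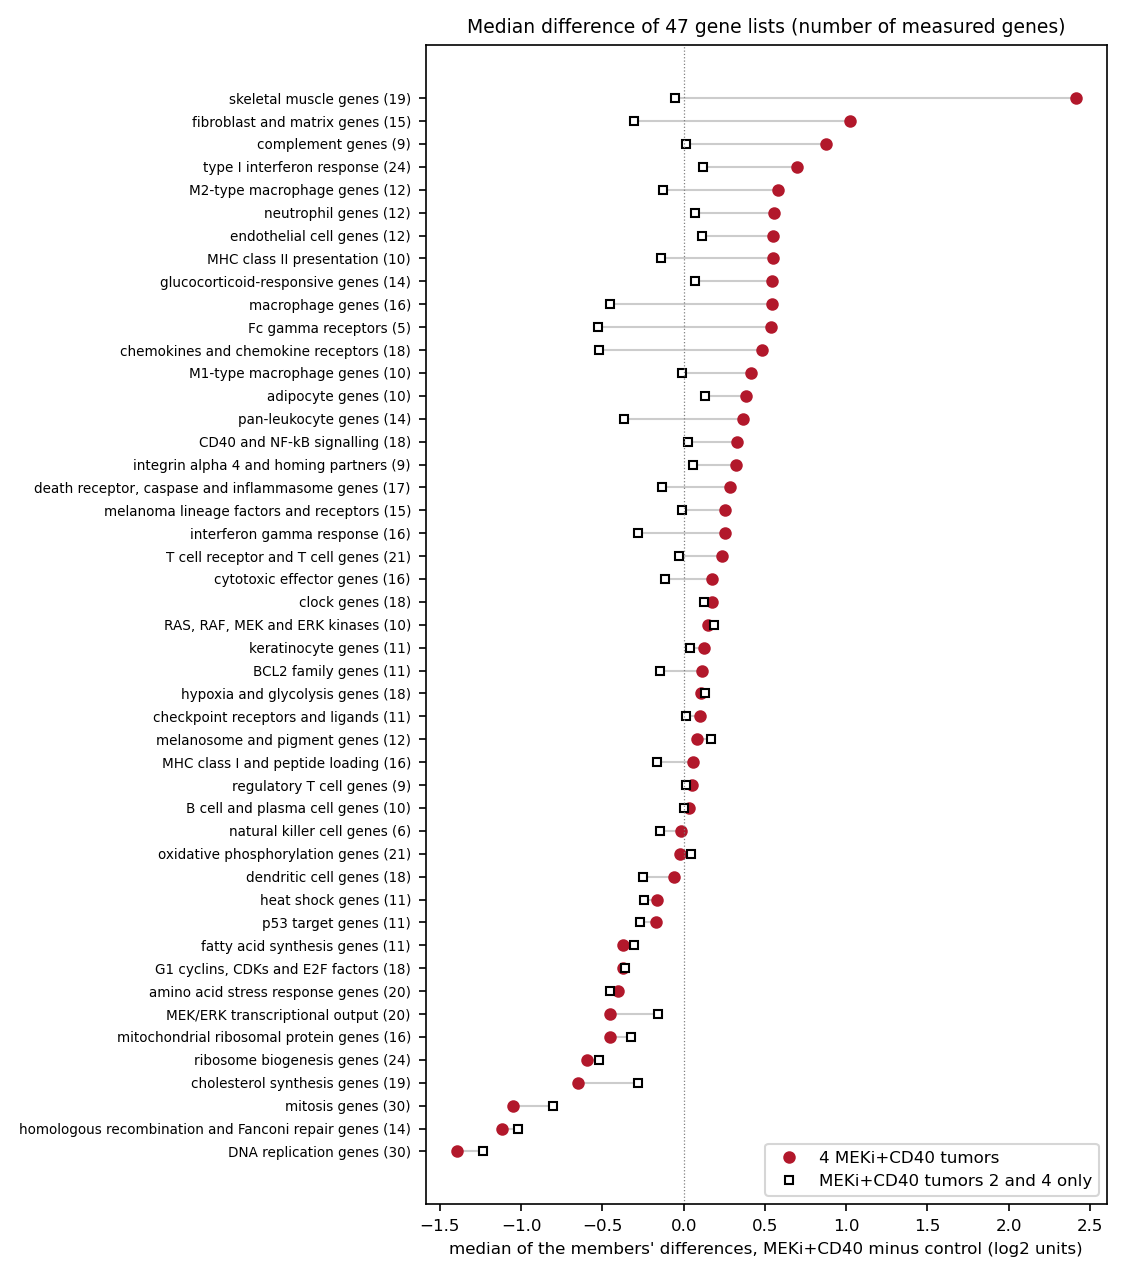
Median of the members' differences, MEKi+CD40 minus control (x axis, log2 units), for 47 gene lists with their numbers of measured genes (y axis), using 4 MEKi+CD40 tumors (filled circles) or tumors 2 and 4 alone (open squares). DNA replication stayed at −1.24 and mitosis at −0.81 with tumors 2 and 4 alone, while skeletal muscle went from 2.42 to −0.05 and macrophage genes from 0.54 to −0.45.

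Outside the lists, the genes with the largest differences among those without overlap and with an adjusted p under 0.05 in the fit of all 16 arrays were chosen after their values were seen. Timp3, an inhibitor of matrix metalloproteinases, read 8.26, 8.69, 8.43 and 8.11 in control tumors 1 to 4 and 10.75, 9.53, 10.65 and 9.77 in MEKi+CD40 tumors 1 to 4, a difference of 1.80 (SE 0.29) with an adjusted p of 0.0517 in the 2-group fit (limma). Clu, an extracellular chaperone, read 7.50, 8.32, 7.77 and 8.00 in controls and 10.94, 9.03, 9.38 and 8.94 in MEKi+CD40 tumors, a difference of 1.68 (SE 0.42). Trnp1 read 6.58, 8.02, 6.58 and 6.34 in controls and 9.98, 8.47, 9.05 and 9.79 in MEKi+CD40 tumors, with control tumor 2 well above the other controls, a difference of 2.44 (SE 0.44). Apol11b was below background in controls, at 3.54, 3.90, 3.94 and 4.61, and read 8.89, 5.19, 8.47 and 6.60 in MEKi+CD40 tumors. On the lower side, Uhrf1, which maintains DNA methylation at replication forks, read 11.92, 11.01, 11.83 and 11.73 in controls and 10.31, 10.51, 8.49 and 9.59 in MEKi+CD40 tumors, a difference of −1.90 (SE 0.43).

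Direct comparison with each agent alone showed whether the combination tumors differed from tumors that received 1 of the 2 agents. Against CD40 tumors, 2133 probe sets (4.74%) passed at an adjusted p under 0.05 in the 2-group fit, 1027 higher and 1106 lower. This count was 0 without CD40 tumor 2 or 4, 7 without CD40 tumor 1, 763 without CD40 tumor 3, 6 without MEKi+CD40 tumor 3, 73 without MEKi+CD40 tumor 4 and 3508 without MEKi+CD40 tumor 1. Of the replication genes, 24 of 30 were lower in the combination than in CD40 tumors by this test, where 3.29% of all genes were, with a median of −1.40. Of the mitosis genes 23 of 30 were lower, with a median of −0.93, and of the homologous recombination genes 12 of 14. Among the ribosome biogenesis genes 7 of 24 fell, with a median of −0.70. Dbp differed by 1.96 (SE 0.15, adjusted p = 0.0105, limma) and S100b by 1.5 (SE 0.13, adjusted p = 0.0154, limma). The cholesterol list, by contrast, had a median of −0.01 against CD40 tumors, with 0 members called in either fit (3.29% of all genes were called lower in the 2-group fit and 7.98% with all 16 arrays). Without the 3 tumors with muscle transcripts, which include CD40 tumor 3, 1526 probe sets passed.

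Against MEKi tumors, 518 probe sets (1.15%) passed at an adjusted p under 0.05 in the 2-group fit, 237 higher and 281 lower, and 4699 (10.4%) passed in the fit of all 16 arrays. The first count was 0 without MEKi tumor 1, 2 or 3 or MEKi+CD40 tumor 3, 68 without MEKi tumor 4, 915 without MEKi+CD40 tumor 1 and 1454 without MEKi+CD40 tumor 2, and 0 without both tumors with muscle transcripts. The replication genes had a median of −1.35 against MEKi tumors, with 2 of 30 called lower in the 2-group fit (0.786% of all genes) and 30 of 30 in the fit of all 16 arrays (8.35% of all genes). For the mitosis genes the median was −0.84, with 0 and 20 called. Interferon genes differed in the opposite direction. The type I interferon list was higher in the combination than in MEKi tumors by a median of 1.89, with 9 of 24 members called in the 2-group fit (0.764% of all genes were called higher) and 20 in the fit of all 16 arrays (5.33%). The interferon gamma list had a median of 3.15, with 1 and 11 of 16 members called, and MHC class I a median of 1.69, with 1 and 13 of 16. Ubd differed by 4.45 (SE 0.64, adjusted p = 0.0496, limma) and Cd274 by 2.61 (SE 0.51, adjusted p = 0.0522, limma).

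Beside their shared controls, the single treatments gave these list medians. The replication genes were at −0.03 in CD40 and −0.07 in MEKi tumors, and the mitosis genes at −0.10 and −0.25. The interferon gamma genes were at 1.20 in CD40 tumors, −2.61 in MEKi tumors and 0.26 in the combination. All 3 comparisons use the same 4 control tumors, so their values are given side by side without a test between them. No probe set passed at an adjusted p under 0.05 in either single-treatment comparison with limma, and 9.98% of genes in CD40 and 7.9% in MEKi tumors had an unadjusted p under 0.05, against 25.4% in the combination.

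**Figure D4:**
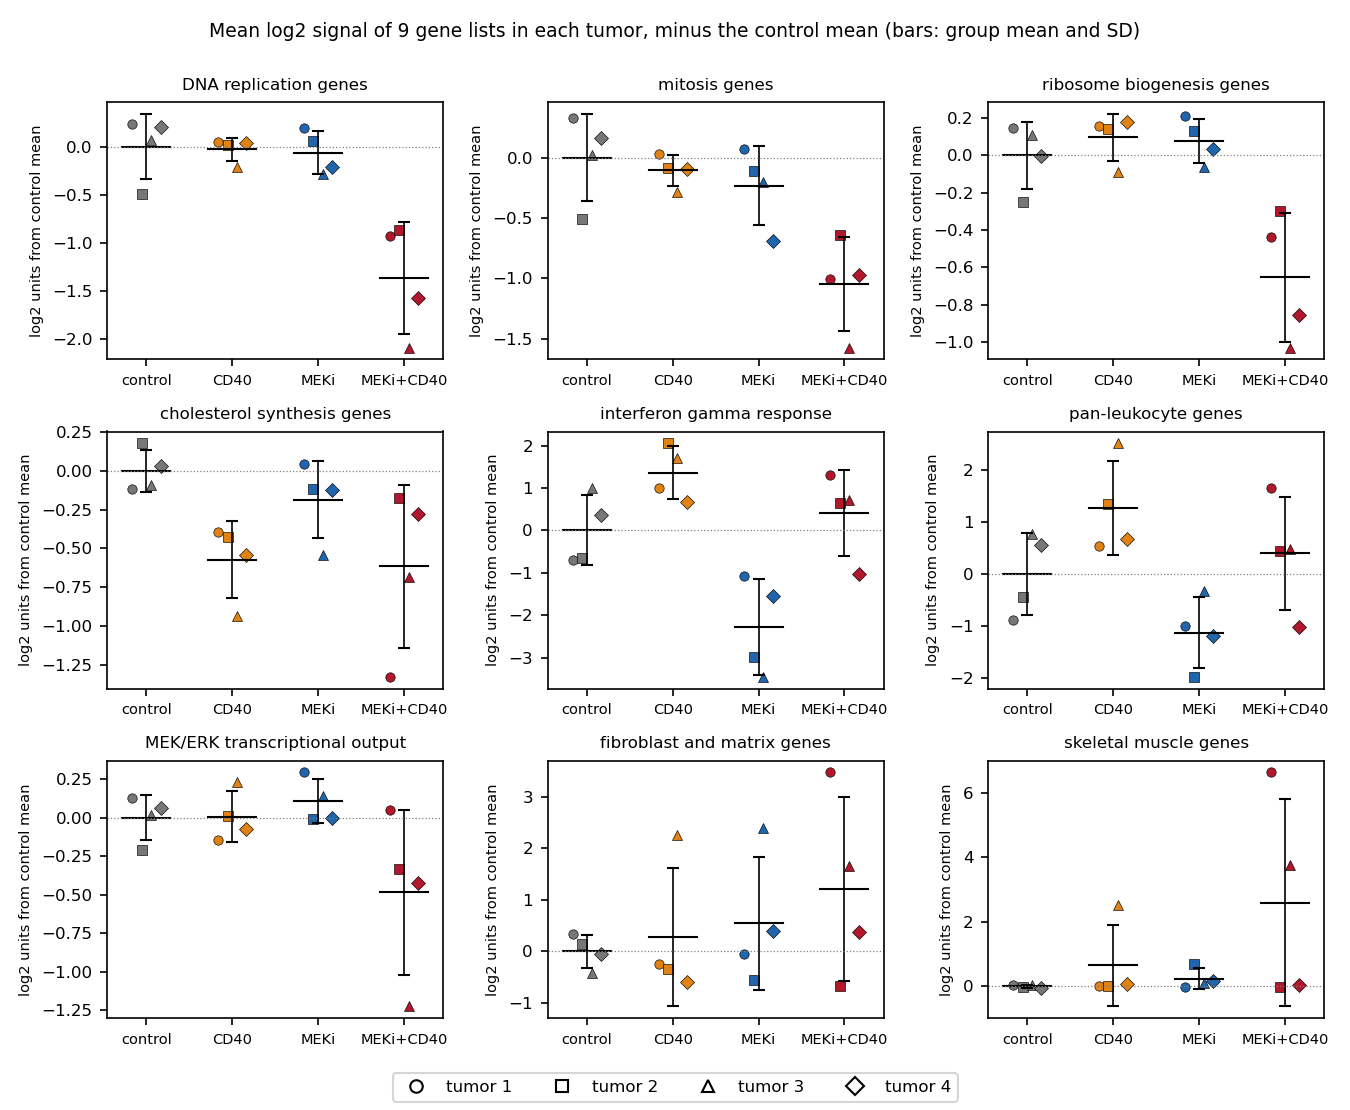
Mean log2 signal of 9 gene lists in each of 16 tumors minus the control mean (y axis, log2 units), by treatment group (x axis), with a marker shape for each tumor number and bars for the group mean and SD (n = 4). MEKi+CD40 tumors lie at −0.87 or lower for DNA replication, where no other tumor is below −0.50, and their interferon gamma scores reach from −1.03 to 1.32.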

How the data were processed

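From each of 16 tumors, 200 ng of RNA with an integrity number of at least 8 went through 3′ IVT Plus labelling onto an Affymetrix mouse array. The authors deposited log2 values made by the robust multichip average (RMA) in Chipster. No version of either is stated. These values were not normalized again, and array medians lay between 5.66 and 5.75. RMA brings all arrays to 1 distribution, so a change shared by most genes would not be seen. After leaving out 64 control probe sets, 45037 entered the fits. The annotation gives 1 symbol for 34945 of them, several for 932 and none for 9160. The first cover 18193 genes, each represented by its brightest probe set over all arrays, and other probe sets of a gene can differ.

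MEKi+CD40 tumors were compared with each other group in limma 3.58.1 (R 4.3.3, lmFit and eBayes) with 2 groups in each fit and Benjamini-Hochberg adjustment over all probe sets. A second fit held all 16 arrays and takes the same spread for every group. MEKi+CD40 arrays were less alike than control arrays. The p-values of that fit can therefore be too small for genes that vary more in MEKi+CD40 tumors. Scripts were tested on simulated data. The labels describe the replicates only as separate tumors, so p-values measure the spread between these tumors. Each title also carries a number for the tumor, whose meaning the labels do not give. Precision is limited by the number of arrays, with a median SE of 0.118 for a difference. Alternatives were a replicate block, a filter on low signal, cyclic loess, median centring, a variance trend, array weights, other probe set rules and leaving out tumors.

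Members and gene lists, 47 lists with 707 of 773 genes measured, were chosen with earlier results of these data known. A list is described by its counts and median, without a test of its own. Genes were named by a rule that took those with the largest differences that passed, up to 4 members of each list with the smallest p, and a set of immune, MAPK and clock genes. Brca1, Cdc6, Mcm5, Mcm6, Cdk1, Cdc20, Etv5, Hspb1, Myh1 and the largest differences outside the lists, among others, were added after their values were seen. Promoters were searched with Python 3.11.15 in RefSeq sequences of GRCm38.p6.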

Additional observations from a re-analysis of the deposited data

Results flagged for a closer look

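Of 242 sets of 4 tumors examined, 11 (4.55%) held a tumor whose gap to its neighbour took an unusually large part of the range of its group, where chance marks about 1 in 20. MEKi+CD40 tumor 3 stood apart for Mki67 at 10.3 (the next tumor was at 11.00), for Spry4 at 4.15 (next 6.30) and for Myc at 6.88 (next 8.67). The MHC class I list of MEKi+CD40 tumor 4 had a mean of 10.165, with the next at 11.33. The pigment list of MEKi+CD40 tumor 1 had a mean of 12.6833, with the next at 13.09.

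Among controls, tumor 2 was apart for Gins1 at 8.47, for Trnp1 at 8.02 and for the clock gene list at 7.7328. Tumor 4 was apart for Srebf2 at 10.04 and for the neutrophil list at 4.9958, and tumor 3 for the natural killer cell list at 4.8833.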

How the results depend on the processing

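Against controls, 4 probe sets passed in the 2-group fit, 4904 with all 16 arrays, 2011 with a filter on low signal, 723 with a variance trend, 3101 with array weights, 1243 with 1 probe set per gene, 641 in all arrays without the muscle tumors, and 0 with cyclic loess, median centring or 2 groups without the muscle tumors. Leaving out 1 tumor gave 0 to 2327. Against CD40 tumors (2133), all 16 arrays gave 5309, array weights 4395, and leaving out 1 tumor 0 to 3508. Against MEKi tumors (518), all 16 arrays gave 4699, the filter 1588, array weights 2450, 1 probe set per gene 853, and loess, centring and the fit without the muscle tumors 0, with 0 to 1454 when 1 tumor was left out. List members called against controls, 0 in the 2-group fit, were 155 with all 16 arrays, 94 with the filter, 33 with the trend, 123 with array weights, 48 in all arrays without the muscle tumors and 0 to 99 with 1 tumor left out. More arrays or fewer probe sets enter some of these fits, and otherwise the cause was not tested.

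Nothing in the labels says that the replicate numbers in the titles pair the tumors. Correlations of same-numbered deviations were −0.25, −0.12, 0.08 and −0.36 for controls. They were −0.57, 0.31, 0.21 and 0.46 for CD40 tumors and −0.01, 0.38, 0.11 and 0.05 for MEKi tumors. A replicate block gave 0 calls in each of the 3 comparisons. These values cannot decide whether tumors were paired, because the correlations are few and a block leaves less data for the spread.

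Mitochondrial ribosomal genes lower at an unadjusted p under 0.05 were 8 without the muscle tumors, against 14, and cholesterol genes were 5 in all arrays without them, against 11. With 1 tumor left out, the median difference was −1.60 to −1.18 for replication, −1.22 to −0.89 for mitosis, −1.29 to −1.04 for homologous recombination and −0.69 to −0.51 for ribosome biogenesis.

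H2-Ab1 turned to −0.075 without the muscle tumors. Ifng was −0.28 with array weights, −0.33 without the muscle tumors and −0.24 to 0.79 with 1 tumor left out. Gzmb was −0.42, −0.43 and −0.33 to 0.65, and Mrc1 −0.41, −0.69 and −0.67 to 0.96, in the same order. Signals below 4.95, such as those of Bard1 in MEKi+CD40 tumors, are limited by background.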
